A study of Mus musculus with 2 samples.

Results

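TRBV14 and TRBV15 are neighbouring variable (V) genes of the mouse T cell receptor β (TRB) locus. Their chains were taken as every productive TRB contig whose V call was TRBV14 or TRBV15, which gave 780 of the 9322 TRB chains in the series. TRBV14 supplied 260 chains, of which 96 were WT and 164 Btla-/-, and TRBV15 supplied 520, of which 234 were WT and 286 Btla-/-. They are 2 of the 22 TRBV gene calls found in these libraries.

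The study sequenced T cell receptors of CD4 single positive (SP) thymocytes by the 10x Genomics V(D)J method, which captures α (TRA) and β chain transcripts cell by cell. The WT library came from C57BL/6J mice and the other from mice labelled C57BL/6-Btla KO, germline knockouts called Btla-/- here, which lack the co-inhibitory receptor BTLA. All mice were 8 to 12 weeks old, and the cells of both were enriched from thymus by negative selection with a naive CD4 kit. The comparison asks whether the receptor repertoire made without BTLA differs from that of WT mice. Each genotype had 1 library, and the number of mice behind a library was not given in the sources used here, so there is no replicate spread and no test between genotypes. Intervals below are exact (Clopper-Pearson) 95% binomial intervals and cover counting error only.

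The libraries held 4141 TRB chains in 4040 cells (WT) and 5181 TRB chains in 5077 cells (Btla-/-). The median TRB contig rested on 13 unique molecular identifiers (UMIs, tags that count captured transcripts) in WT and 10 in Btla-/-. 30 cell barcodes occurred in both libraries, and among them were 1 TRBV14 cell of each library, 3 WT TRBV15 cells and 2 Btla-/- TRBV15 cells. The files hold receptor transcripts only, so the CD4 SP label could not be checked against Cd4 or other surface markers. The receptor of semi-invariant natural killer T cells, TRAV11 joined to TRAJ18, was paired with TRBV14 in 0 cells and with TRBV15 in 1 Btla-/- cell. The pairing of mucosal-associated invariant T cells, TRAV1 with TRAJ33, was found with neither gene.

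A β chain gene is assembled in the developing thymocyte by the RAG recombinase, which first joins a D segment to a J segment and then a V gene to the DJ unit. RAG cuts at recombination signal sequences, each a heptamer and a nonamer held apart by a spacer. Nucleases then trim the cut ends and terminal transferase adds untemplated bases, and the resulting junction encodes CDR3, the loop that lies over the peptide. CDR1 and CDR2 are encoded by the V gene itself and contact mainly the MHC molecule.

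TRBV14 lies at chr6:41135145-41135616 on the plus strand of GRCm38 and TRBV15 at chr6:41141188-41141658, also on the plus strand. Both have 2 exons in GENCODE M21, and 5571 bases separate them. TRBV13-3 ends 4559 bases before TRBV14, TRBV16 starts 10081 bases after TRBV15, and TRBD1, the nearer D segment, starts 391542 bases after TRBV15. The end of each V gene is shown from the conserved cysteine codon of CDR3 through its recombination signal, because this stretch sets how CDR3 starts. Capitals mark the heptamer and the nonamer, and RAG cuts just before the heptamer.
TRBV14: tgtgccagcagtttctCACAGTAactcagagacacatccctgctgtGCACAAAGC
TRBV15: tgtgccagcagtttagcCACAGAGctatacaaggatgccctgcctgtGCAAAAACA

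The coding part of CDR3 spanned 16 bases in TRBV14 (chr6:41135601-41135616) and 17 bases in TRBV15 (chr6:41141642-41141658). The genes share the first 14 of these bases and part at the end of the fifth codon, which reads ttc (phenylalanine) in TRBV14 and tta (leucine) in TRBV15. Each heptamer matched the consensus CACAGTG at 6 of 7 bases. The nonamers matched the consensus ACAAAAACC at 6 of 9 bases in TRBV14 and 7 of 9 in TRBV15. Of the 20 V genes in these libraries whose ends could be read from the genome, 7 carried the consensus heptamer. The heptamer of TRBV14 was found in 1 of the 20, TRBV14 itself, and that of TRBV15 in 2, the other being its neighbour TRBV16.

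The germline loops of the genes differed. CDR1 and CDR2 are given as the contigs had them, and every chain of a gene carried the same sequence.
TRBV14 CDR1: tctggacatgatacc
TRBV15 CDR1: tcaggccacaatgac
TRBV14 CDR2: tttcgggatgaggctgtt
TRBV15 CDR2: ttccgcagcaagtctctt

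Over the framework and loop regions before CDR3 the genes shared 164 of 273 bases and 40 of 91 amino acids (44.0%). CDR2 was the least alike loop, with 2 of 6 residues in common, against 3 of 5 in CDR1. The V protein most like either gene was that of TRBV16, at 50.5% identity to TRBV14 and 61.5% to TRBV15. All 260 TRBV14 and all 520 TRBV15 chains matched the genome exactly in these regions, so the V call did not rest on the CDR3 start that the genes share.

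TRBV14 was one of the less used V genes and TRBV15 stood in the upper part of the order. TRBV14 made up 2.32% (1.88 to 2.82) of TRB chains in WT and 3.17% (2.71 to 3.68) in Btla-/-, rank 19 and rank 18 of 22. TRBV15 made up 5.65% (4.97 to 6.4) in WT and 5.52% (4.91 to 6.18) in Btla-/-, rank 8 and rank 9. The TRBV15 share was thus above that of TRBV14 in each library, with intervals apart. Between libraries, the TRBV14 share was 1.37 times as high in Btla-/- as in WT, the furthest ratio from 1 among the 21 V genes that reached 1% of TRB chains in either library. Its intervals overlapped, and by percentage points (0.847) it ranked 6. Among cells with 1 chain of each kind the direction turned. TRBV14 stood at 2.84% (40 of 1406 chains, 2.04 to 3.85) in WT and 2.59% (38 of 1466, 1.84 to 3.54) in Btla-/-. These intervals also overlapped, and this subset holds only cells with a TRA chain. The TRBV15 share differed by -0.131 points (Btla-/- minus WT). Over the 21 genes, 9.52% (TRBV10 and TRBV19) had intervals apart between the libraries, and neither TRBV14 nor TRBV15 was among them.

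For the flanking genes, no difference between the libraries stood clear of counting error. TRBV13-3 had 4.54% of chains in WT and 3.69% in Btla-/-, and TRBV16 had 5.24% and 6.29%, all with overlapping intervals.

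**Figure D1:**
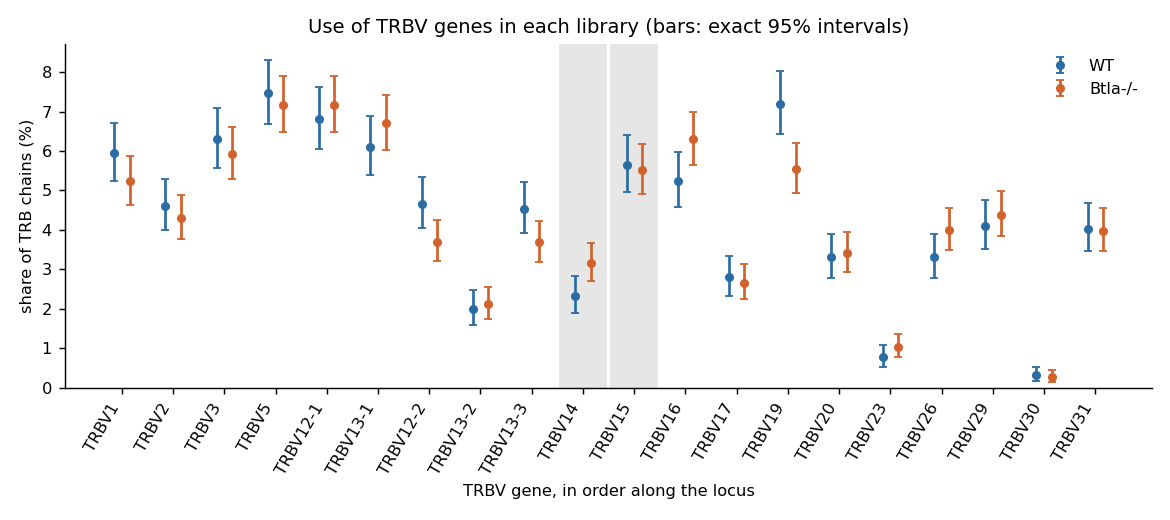
Share of TRB chains (y axis, percent) for each TRBV gene with a position in the genome annotation, in order along the locus (x axis), with exact 95% intervals; TRBV10 and the joint call TRBV12-2+TRBV13-2 are left out. The grey bands mark TRBV14, at 2.32% in WT and 3.17% in Btla-/-, and TRBV15, at 5.65% and 5.52%.

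TRBJ segments follow the D segments in a pair of clusters. TRBJ1 segments lie between TRBD1 and the constant gene TRBC1, and TRBJ2 segments between TRBD2 and TRBC2. Neither V gene was joined evenly to them, and TRBJ1-2 was the segment that both used little. TRBV14 was joined to TRBJ1-2 in 2 of 96 WT chains (2.08%, 0.253 to 7.32) and 3 of 164 Btla-/- chains (1.83%, 0.379 to 5.25). Chains with any other V gene used TRBJ1-2 at 6.55% (5.81 to 7.36) in WT and 7.12% (6.42 to 7.86) in Btla-/-. The interval of TRBV14 lay below theirs in Btla-/-, as did 4.17% of 240 pairs of V gene and TRBJ segment in that library, and overlapped it in WT.

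TRBV15 was joined to TRBJ1-2 in 4 of 234 WT chains (1.71%, 0.468 to 4.32) and 7 of 286 Btla-/- chains (2.45%, 0.990 to 4.98). The other V genes stood at 6.73% (5.97 to 7.56) and 7.21% (6.50 to 7.97), so TRBV15 lay below them in both libraries. In both libraries TRBV14 and TRBV15 had the lowest TRBJ1-2 shares of the 21 V genes. The remaining 19 ran from 3.24% to 10.7% in WT, with a median of 7.72%, and from 4.35% to 11.9% in Btla-/-, with a median of 6.77%.

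TRBJ1-6 was used still less by TRBV15, in 1 of 234 WT chains (0.427%, 0.0108 to 2.36) and 1 of 286 Btla-/- chains (0.350%, 0.00885 to 1.93). The other V genes joined it in 4.35% (3.73 to 5.04) and 3.76% (3.24 to 4.33), above TRBV15 in both libraries. TRBV14 chains with TRBJ1-6 numbered 4 of 96 in WT (4.17%) and 2 of 164 in Btla-/- (1.22%), and their intervals overlapped those of the other V genes. Counted over the 18 V genes with at least 100 chains in each library and the 12 TRBJ segments, 3 of 216 pairs (1.39%) lay below the other TRB chains in both libraries. These were TRBV15 with TRBJ1-2, TRBV15 with TRBJ1-6 and TRBV3 with TRBJ1-6. TRBV14, with 96 WT chains, was not in this count. The share of pairs above the other chains in both libraries was 0.

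The segments TRBJ1-2 and TRBJ1-6 are shown with TRBJ2-7, the segment most used by TRBV14 in both libraries and by TRBV15 in Btla-/-. Capitals mark the nonamer and the heptamer, which stand before a J segment, and the coding part follows. They lie on the plus strand of GRCm38 with coding parts at chr6:41534001-41534048, chr6:41535554-41535606 and chr6:41543810-41543856.
TRBJ1-2: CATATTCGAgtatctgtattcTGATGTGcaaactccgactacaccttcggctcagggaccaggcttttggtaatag
TRBJ1-6: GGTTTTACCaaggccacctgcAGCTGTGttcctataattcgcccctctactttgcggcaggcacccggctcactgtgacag
TRBJ2-7: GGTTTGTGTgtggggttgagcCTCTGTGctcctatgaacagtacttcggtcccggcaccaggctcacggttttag

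Against the consensus signal of this orientation (GGTTTTTGT and CACTGTG), TRBJ1-2 matched at 4 of 9 nonamer and 4 of 7 heptamer bases, TRBJ1-6 at 6 and 5, and TRBJ2-7 at 8 and 6. These are matches of letters, counted for these segments only, and any link between them and TRBJ use was not tested.

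At the high end, TRBJ2-7 took 18.8% (11.5 to 28) of TRBV14 chains in WT and 17.7% (12.2 to 24.4) in Btla-/-. TRBV15 was joined most often to TRBJ2-1 in WT, at 16.7% (12.1 to 22.1), and to TRBJ2-7 in Btla-/-, at 17.1% (13 to 22.0). The TRBV15 share of TRBJ2-1 lay above the other V genes in WT (10.0%, 9.11 to 11), as did 3.24% of 216 pairs, while in Btla-/- its 12.2% (8.67 to 16.6) overlapped their 9.77%. TRBJ1-1 was the leading TRBJ1 segment of TRBV15, with 15.4% in WT and 14.3% in Btla-/-. For TRBV14 the TRBJ1-1 share was 13.5% (7.41 to 22.0) in WT and 6.71% (3.4 to 11.7) in Btla-/-, and TRBJ1-4 led its TRBJ1 segments in both libraries with 14.6% and 10.4%. No segment of either gene had intervals apart between WT and Btla-/-.

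**Figure D2:**
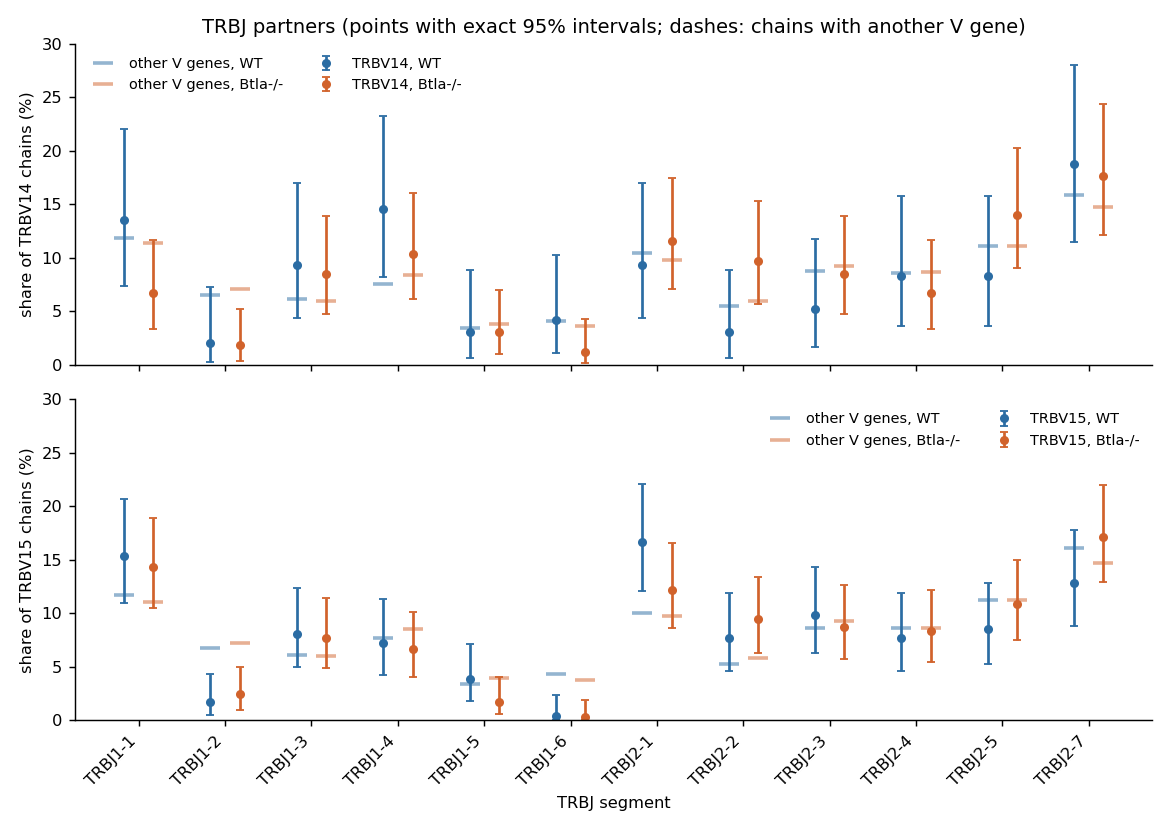
Share of TRBV14 chains (upper panel) and TRBV15 chains (lower panel) joined to each TRBJ segment (y axes, percent), with exact 95% intervals; dashes give chains with any other V gene. TRBJ1-2 stood between 1.71% and 2.45% for both genes in both libraries, and TRBJ1-6 of TRBV15 at 0.427% and 0.350%.

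TRBJ2 segments took 53.1% (42.7 to 63.4) of TRBV14 chains in WT and 68.3% (60.6 to 75.3) in Btla-/-. For TRBV15 they took 63.2% (56.7 to 69.4) and 66.8% (61.0 to 72.2), and for the V genes other than these 60.2% and 59.2%. Against the V genes other than these, both genes lay above in Btla-/-, for TRBV14 by a margin of 60.58 against 60.57. Set against all chains of Btla-/- with another V gene, TRBV14 overlapped and TRBV15 lay above, as 1 of 3 among 20 V genes (15%). The call for TRBV14 thus depended on the background. The TRBV14 values in WT and Btla-/- overlapped each other. Cluster order was kept wherever a C gene was called, since 0 chains of TRBV14 or TRBV15 combined TRBJ1 with TRBC2 or TRBJ2 with TRBC1. The other V genes were the same, with 0 of 3811 chains in WT and 0 of 4731 in Btla-/-. A C call was missing in 1 TRBV15 chain of Btla-/-.

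By total variation distance, the share of chains that would have to change segment for one usage to become the other, the TRBJ usage of TRBV14 was nearest to that of TRBV19 (0.148) and TRBV15 (0.150), each a mean over the libraries. TRBV15 was nearest to TRBV19 (0.134) and TRBV3 (0.144). TRBV14 in WT stood at 0.179 from TRBV14 in Btla-/-, further than its mean distance to TRBV19 or TRBV15. Within WT alone its distance to TRBV15 was larger, at 0.193, and within Btla-/- it was 0.108. TRBV15 stood at 0.0979 from itself between the libraries. These distances describe the libraries, and with few chains they include counting error.

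The D segments left short traces between the V and J bases. Their germline sequences, at chr6:41533201-41533212 and chr6:41542163-41542176, are given because the same letters recur in the chains shown further on.
TRBD1: gggacagggggc
TRBD2: gggactgggggggc

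A D segment was named by the upstream software in few chains, and 79.2% and 77.4% of TRBV14 and 73.5% and 80.1% of TRBV15 chains had no D call (WT first, then Btla-/-). Junctions were therefore searched for 6 bases in a row found in one D segment and not in the other. Among TRBJ2 chains, the TRBD2 stretch was present in 45.1% (31.1 to 59.7) of TRBV14 chains in WT and 26.8% (18.9 to 36.0) in Btla-/-. TRBV15 held it in 50.0% and 46.6% of TRBJ2 chains, and the other V genes in 43.1% (40.9 to 45.4) and 45.9% (43.9 to 48.0). TRBV14 in Btla-/- thus lay below the other V genes of its library, as did 11.1% of 18 V genes (TRBV14 and TRBV26), while in WT it did not. TRBD2 follows the TRBJ1 cluster, so its stretch in TRBJ1 chains is a background for chance matches, which was 2.22% and 3.85% for TRBV14 and 9.30% and 5.26% for TRBV15. The TRBD1 stretch was found in 38.5% and 42.1% of all TRBV14 chains and in 35.0% and 37.4% of all TRBV15 chains, near the 38.1% and 37.9% of the other V genes.

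TRBV14 and TRBV15 rarely kept their last coding base. The whole V end stood in the junction of 6.25% (2.33 to 13.1) of TRBV14 chains in WT and 6.71% (3.4 to 11.7) in Btla-/-. For TRBV15 it stood in 4.27% (2.07 to 7.72) and 2.80% (1.22 to 5.44). The other V genes kept it in 25.9% (24.4 to 27.5) and 26.4% (25 to 27.8), the neighbour TRBV13-3 in 17% and 19.4%, and TRBV16 in 20.7% and 21.8%. Both genes lay below the other V genes in both libraries. This was not rare among V genes, as 6 of the 19 that could be read (31.6%) did so, the others being TRBV3, TRBV19, TRBV26 and TRBV29. TRBV15 ranked lowest of the 19 in WT and next to lowest, after TRBV3, in Btla-/-, and TRBV14 ranked 3 in each library.

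TRBV14 had lost a mean of 3.28 ± 1.94 germline bases (SD over 96 chains) in WT and 3.28 ± 1.89 (164 chains) in Btla-/-. TRBV15 had lost 4.0 ± 2.19 (234 chains) and 4.01 ± 2.04 (286 chains), and the other V genes 2.48 ± 2.13 and 2.47 ± 2.12. The losses were not spread evenly. In TRBV14, chains that kept exactly 11 bases (tgtgccagcag) made up 25% in WT and 30.5% in Btla-/-. Those that kept 12 bases made up 19.8% and 17.1%, those with 14 bases 19.8% and 18.9%, and those with 15 bases 15.6% and 14.6%. In TRBV15, 29.1% and 21% kept 11 bases, 14.1% and 22.4% kept 12, and 16.2% and 19.2% kept 14, and a smaller peak of 12.8% and 11.5% kept 16, all but the last base. A base added by chance that equals the germline one counts as kept, so trimming was at least as deep as these values. The stretch between the V and J bases, which holds the D remnant and added bases, had a mean length of 10.5 and 10.7 bases in TRBV14, 10.7 and 10.9 in TRBV15, and 10.4 and 10.7 in the other V genes.

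**Figure D3:**
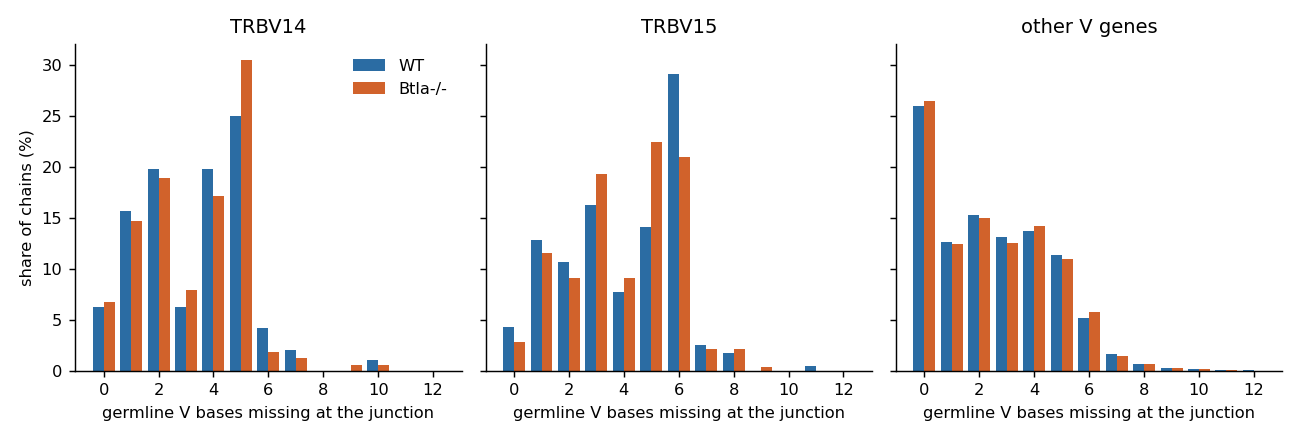
Germline V bases missing at the junction (x axis, bases from the V end) against the share of chains (y axis, percent) for TRBV14, TRBV15 and the V genes other than these, WT and Btla-/- side by side. No base was missing in 25.9% and 26.4% of the other chains, in 6.25% and 6.71% of TRBV14 chains and in 4.27% and 2.80% of TRBV15 chains.

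At the protein level, CDR3 of both genes opened mostly with CASS, and the germline residue was the commonest to follow it. CASS opened 86.5% (WT) and 83.5% (Btla-/-) of TRBV14 CDR3s and 80.3% and 86.4% of TRBV15 CDR3s. CASSF was the leading start of TRBV14, with 27 of 96 chains (28.1%, 19.4 to 38.2) in WT and 43 of 164 (26.2%, 19.7 to 33.6) in Btla-/-. CASSL was the leading start of TRBV15, with 80 of 234 chains (34.2%, 28.1 to 40.7) and 100 of 286 (35.0%, 29.4 to 40.8). Chains of other V genes opened with CASSF in 1.81% and 2.35% and with CASSL in 16.8% and 17.3%. A V gene fixes most of its own CDR3 start, so these shares describe the genes and the depth of trimming.

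Each gene also produced the start of the other. TRBV14 opened with CASSL in 17.7% of chains in each library, and TRBV15 opened with CASSF in 12.0% and 11.2%. CASSF and CASSL together opened 45.8% and 43.9% of TRBV14 CDR3s and 46.2% of TRBV15 CDR3s in each library. The codons of the fifth residue overlapped between the genes. Of the TRBV14 phenylalanines, 23 of 27 in WT and 35 of 43 in Btla-/- used the germline codon ttc, and of the TRBV15 leucines 65 of 80 and 67 of 100 used the germline tta. The TRBV14 leucines used ttg (9 and 10), tta (6 and 13) and ctc (2 and 6), and the TRBV15 phenylalanines were divided between ttc (15 and 12) and ttt (13 and 20). CASSP, whose proline is encoded by neither V gene, came to 16.7% and 12.2% of TRBV14 and 10.3% and 11.9% of TRBV15 chains.

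The mean CDR3 length of both genes lay slightly below that of the other V genes in both libraries. The gaps were smaller than the SD over chains, which does not measure the error of a mean. The mean length was 14.07 ± 1.54 amino acids (SD over chains) in WT and 14.02 ± 1.52 in Btla-/- for TRBV14, and 14.02 ± 1.60 and 14.14 ± 1.42 for TRBV15. The other V genes had 14.23 ± 1.51 and 14.28 ± 1.52. From the shortest mean of 21 V genes, TRBV14 ranked 9 and 5 and TRBV15 ranked 6 and 10 (WT, then Btla-/-). Lengths ran from 11 to 20 (WT) and 10 to 18 (Btla-/-) in TRBV14 and from 8 to 18 and 8 to 19 in TRBV15, and 14 amino acids was the commonest length of both genes in both libraries. CDR3s of 13 amino acids or fewer made up 34.4% (25 to 44.8) and 29.9% (23 to 37.5) of TRBV14 chains. For TRBV15 they made up 33.8% (27.7 to 40.2) and 29.4% (24.2 to 35.0), and for the other V genes 27.7% and 26.8%. At 15 amino acids or more the shares were 32.3% and 36.6% for TRBV14, 37.6% and 37.8% for TRBV15, and 43.6% and 44.4% for the other V genes. Every one of these intervals for TRBV14 and TRBV15 overlapped that of the other V genes.

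**Figure D4:**
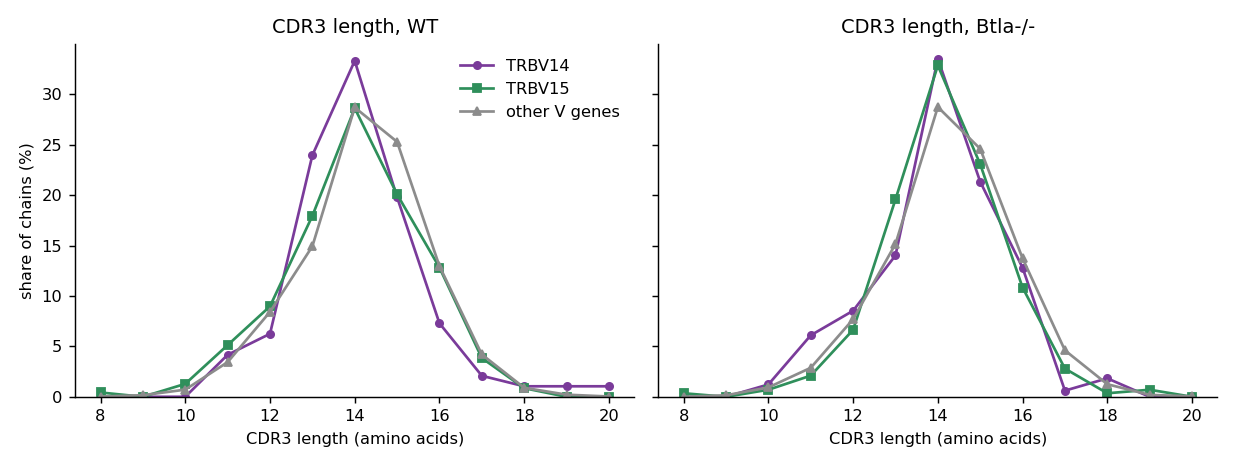
CDR3 length (x axis, amino acids, 8 to 20) against the share of chains (y axis, percent) in WT (left) and Btla-/- (right) for TRBV14, TRBV15 and the V genes other than these. All curves peak at 14 amino acids, where TRBV14 holds 33.3% and 33.5% of its chains, and those of TRBV14 and TRBV15 lie mostly below the grey curve at 15 and above.

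An α chain was recovered in fewer cells than a β chain, so pairing rests on part of the cells. Of TRBV14 cells, 46 of 96 in WT (47.9%, 37.6 to 58.4) and 49 of 164 in Btla-/- (29.9%, 23 to 37.5) had a TRA chain. Of TRBV15 cells, 96 of 234 (41.0%, 34.7 to 47.6) and 101 of 285 (35.4%, 29.9 to 41.3) had one, and of cells with other V genes 41.9% and 35.1%. TRBV14 was 1 of 2 V genes, with TRBV19, of 21 (9.52%) whose intervals did not overlap between the libraries, for TRBV14 by a margin of 37.6 against 37.5. Among cells whose TRBV14 contig had at least 10 UMIs the shares were 45.5% (32.0 to 59.4) and 30.3% (21.5 to 40.4), which overlapped. The median TRB contig had 13 UMIs in WT and 10 in Btla-/-, while TRBV14 contigs had a median of 11 in both libraries. The median TRA contig had 3 in both, and the part of depth was not tested.

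The paired α chains were spread over many TRAV subgroups. In WT the 48 α chains of TRBV14 cells fell into 13 subgroups, led by TRAV6 and TRAV7 with 8 each (16.7%) and TRAV13 with 6 (12.5%). In Btla-/- the 53 fell into 13, led by TRAV6 with 12 (22.6%), then TRAV7 and TRAV14 with 8 each (15.1%). TRBV15 cells had 109 α chains of 15 subgroups in WT, led by TRAV6 (18 chains, 16.5%), TRAV13 (17, 15.6%) and TRAV12 (14, 12.8%). In Btla-/- they had 111 of 17 subgroups, led by TRAV7 (21, 18.9%) and TRAV6 (17, 15.3%), with TRAV12 and TRAV13 at 12 each (10.8%). TRAV7 with TRBV15 had been 7 chains in WT (6.42%, 2.62 to 12.8), against 18.9% (12.1 to 27.5) in Btla-/-, with narrowly overlapping intervals. With each gene and in each library, 0 of 20 subgroups had an interval apart from that of α chains paired with other V genes.

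The α chains of TRBV14 cells used TRAJ1 to TRAJ30, the TRAJ segments nearer the constant gene, in 47.9% of WT and 52.8% of Btla-/- chains. In TRBV15 cells the shares were 50.5% (40.7 to 60.2) and 64.9% (55.2 to 73.7). α chains paired with V genes other than TRBV15 had 48.2% and 57.2%, and the intervals of both genes held the values of their library.

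By their median, TRBV15 contigs were among the best covered and TRBV14 contigs stood in the middle or below. TRBV15 contigs had a lowest count of 2, a median of 19 and a highest of 133 UMIs in WT, and 1, 13 and 108 in Btla-/-. Their median ranked highest of 21 V genes in WT and shared rank 2 with TRBV1 in Btla-/-, behind TRBV13-1. TRBV14 contigs had a lowest count of 2, a median of 11 and a highest of 73 UMIs in WT, and 2, 11 and 168 in Btla-/-, rank 14 and rank 9. Medians of the other V genes together were 13 and 10. In 20 of 21 V genes the Btla-/- median was below that of WT, in TRBV15 at 0.684 of it, and TRBV14 was the gene with equal medians. As a result TRBV15 took 7.70% of TRB UMIs and 5.65% of TRB chains in WT, and 6.86% and 5.52% in Btla-/-. TRBV14 took 1.98% of UMIs and 2.32% of chains in WT, and 3.79% and 3.17% in Btla-/-, where its mean of 16.0 UMIs lay near the 16.6 of TRBV15 and above the 13.1 of the other V genes.

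Contigs resting on 1 UMI were 0 of 96 and 0 of 164 for TRBV14. The limit of 3 counts is 3.12% and 1.83% here, and the exact intervals reach 3.77% and 2.22%. For TRBV15 such contigs were 0 of 234 in WT (limit of 3 counts 1.28%, exact upper end 1.56%) and 1 of 286 in Btla-/-. UMIs per contig reflect transcript level, capture and amplification of each V gene together, and these cannot be told apart here. The contigs were alike in length, with medians of 520 bases for TRBV14 and 521 bases for TRBV15 in both libraries.

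**Figure D5:**
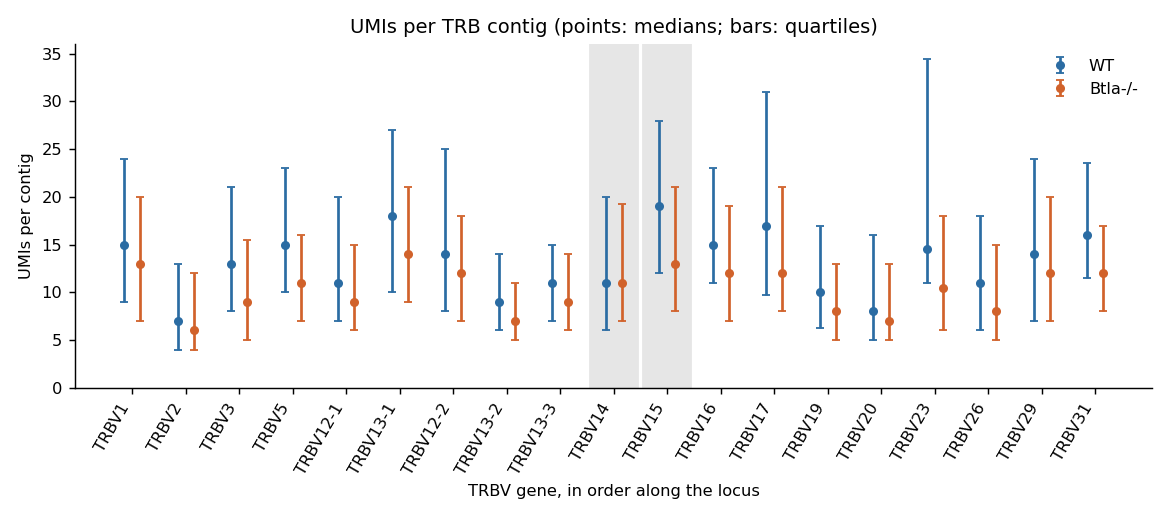
Median UMIs per TRB contig (points, y axis) with quartiles (bars) for each TRBV gene that has a genome position and reached 1% of TRB chains in either library, in locus order (x axis), for WT and Btla-/-. In the grey bands TRBV14 sits at 11 in both libraries, and TRBV15 at 19 in WT and 13 in Btla-/-.

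A second productive β chain was found in 4 of 96 WT and 7 of 164 Btla-/- TRBV14 cells (4.17% and 4.27%) and in 18 of 234 and 21 of 285 TRBV15 cells (7.69% and 7.37%). TRBV13-3 cells stood at 6.91% and 7.33% and TRBV16 cells at 6.91% and 8.31%, with intervals that overlapped. In 1 WT cell the chains were TRBV14 (3 UMIs) and TRBV15 (18 UMIs), and 1 Btla-/- cell held a pair of TRBV15 chains. In a single barcode, a cell with 2 transcribed β chains and a droplet with RNA of 2 cells look the same, and no doublet call was made. In Btla-/-, 2 cells held the same pair of β chains base for base, TRBV15 with TRBJ1-4 and TRBV16 with TRBJ2-5. These 2 cells also shared an α chain.

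The same chain, defined by V, J and CDR3 bases, recurred in several cells of a library for both genes, except TRBV14 in WT. There 0 of 96 TRBV14 cells shared a chain, for which the limit of 3 counts is 3.12% and the upper end of the exact interval 3.77%. In Btla-/-, 10 TRBV14 chains recurred and covered 21 of 164 contigs (12.8%, 8.10 to 18.9), apart from the WT interval. This was so for 2 of 21 V genes (9.52%), TRBV14 and TRBV17. In TRBV15, 8 recurring chains covered 20 WT contigs (8.55%, 5.30 to 12.9) and 19 covered 38 Btla-/- contigs (13.3%, 9.58 to 17.8). The other V genes had 6.85% (6.07 to 7.70) in WT and 8.26% (7.50 to 9.09) in Btla-/-. In Btla-/- TRBV15 lay above them, as did 10% of 20 V genes (TRBV15 and TRBV17), and TRBV14 overlapped. In WT the TRBV14 interval lay below that of the other V genes, with an upper end of 3.77%. How many V genes did so in WT was not counted. TRBV23, with 32 WT chains, had no recurring chain there either. WT also had fewer TRBV14 chains in which a repeat could be seen (96 against 164), and the part of this was not tested.

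Cells that shared a β chain were compared for their α chain where at least 2 of them had one. In TRBV14 of Btla-/-, 3 recurring chains had a TRA chain in at least 2 cells, and in all 3 the cells that had one shared it. They are printed with the V bases and J bases in lower case and the bases between them in capitals.
TRBV14 with TRBJ2-7, 3 cells: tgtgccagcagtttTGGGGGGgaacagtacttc
TRBV14 with TRBJ1-5, 2 cells: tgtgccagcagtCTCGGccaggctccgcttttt
TRBV14 with TRBJ2-7, 2 cells: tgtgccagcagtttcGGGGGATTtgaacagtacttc

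In TRBV15 of WT the α chain was shared in 2 of 2 such chains, and in Btla-/- it was shared in 2 and different in 3 of 5. Among the 3 that differed, the chain with TRBJ2-3 lay in 2 cells that each held another β chain. These were TRBV19 (7 UMIs) and TRBV26 (3 UMIs), so the α chains of these cells cannot be assigned to the TRBV15 chain. The TRBV15 chain found in most cells of WT had no α chain in any of its 4 cells. The one found in 3 cells, of which 2 had a TRA chain and shared it, is also the TRBV15 chain of the WT cell that held TRBV14 as well.
TRBV15 with TRBJ2-1, 4 WT cells: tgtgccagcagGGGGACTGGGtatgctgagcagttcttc
TRBV15 with TRBJ1-1, 3 WT cells: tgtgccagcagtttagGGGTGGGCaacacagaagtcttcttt

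Between the libraries no chain recurred base for base, neither for TRBV14 (96 and 153 distinct chains) nor for TRBV15 (222 and 267). Chains of the other V genes did so in 3 cases, 0.0819% of their WT and 0.0662% of their Btla-/- distinct chains, a share too low to be detectable at the numbers of TRBV14 and TRBV15. The TRBV14 libraries had no CDR3 in common at the protein level either. TRBV15 had 2 protein CDR3s with the same TRBJ in both, 0.905% of its WT and 0.749% of its Btla-/- distinct CDR3s. Other V genes shared 16, which is 0.438% and 0.354% of theirs. Each of the 2 was encoded differently in WT and Btla-/-.
TRBV15 with TRBJ1-1, WT: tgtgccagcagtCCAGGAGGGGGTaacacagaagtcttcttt
TRBV15 with TRBJ1-1, Btla-/-: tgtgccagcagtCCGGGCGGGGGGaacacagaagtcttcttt
TRBV15 with TRBJ2-7, WT: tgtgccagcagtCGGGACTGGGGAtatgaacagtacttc
TRBV15 with TRBJ2-7, Btla-/-: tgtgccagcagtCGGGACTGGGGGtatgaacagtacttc

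The TRBJ1-1 versions differed at 3 bases and the TRBJ2-7 versions at 1 base. In both pairs TRBV15 kept 12 germline bases and the middle part spanned 12 bases. The TRBJ2-7 chain carried a long run of TRBD2, and in Btla-/- it was present in 2 cells with different α chains. The protein of this chain is 13 amino acids long and that of the other 14.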

How the data were processed

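Single-cell V(D)J libraries of CD4 SP thymocytes, 1 from WT and 1 from Btla-/- mice, were read from the contig annotations that the authors deposited. Per the labels, these were made with Cell Ranger 7.2.0 on GRCm38, and the deposited values are counts of reads and UMIs per assembled contig, with V, D, J and C calls, CDR3 and framework sequences. Both files held productive contigs only. Deposited summary tables of CDR3 lengths, clone proportions and V gene percentages were not used. Samples were grouped by the genotype in their labels.

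Each contig was counted as 1 chain, and a cell is a barcode. Shares carry exact (Clopper-Pearson) 95% binomial intervals, a share of 0 is given with the limit that 3 counts allow, and values were called apart where intervals did not overlap. With 1 library per genotype no test was run. V genes were compared where they reached 1% of TRB chains in either library, and pairs with TRBJ where a gene had at least 100 chains in each library. V ends, recombination signals and D and J segments were read with samtools 1.23.1 from the RefSeq copy of GRCm38.p6 at GENCODE M21 positions. V bases kept are those of CDR3 that match the germline from its first base without a mismatch, and J bases likewise from the last. V genes other than TRBV14 and TRBV15 serve as the background, except for single TRBJ and TRAV values and counts over V genes, where all but the gene at hand do. Python 3.11.15, pandas 2.3.3, numpy 2.4.6, scipy 1.17.1 and matplotlib 3.10.9 were used. The code for shares and for matching V bases was run on simulated data. The simulated junctions held no chance matches to germline bases, so they do not test the depth of trimming. Neighbours in the locus, the 2 V genes nearest in TRBJ usage, segments apart in both libraries, the 3 leading TRAV subgroups and recurring or shared CDR3s were named by rule. The genes, lists and rules were chosen with earlier results of these data known. Chains printed for recurring CDR3s were picked for the number of cells or a shared α chain.

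Values were recomputed after leaving out contigs below 3 UMIs, on cells that held 1 chain of each kind, on distinct chains, without barcodes seen in both libraries, on the TRB chain with most reads in a cell, and with other limits for the CDR3 start (4 amino acids) and length (12 amino acids). Depth was 80347 UMIs in WT and 75456 in Btla-/-, and reads of 1 molecule are not independent, so intervals cover counting error only.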

Additional observations from a re-analysis of the deposited data

How the results depend on the processing

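Of 180 recomputed values, 160 stayed inside the 95% interval of the value reported, among them all 36 with each distinct chain counted once, all 36 without the barcodes found in both libraries and all 36 with 1 TRB chain per cell. These settings left out few chains and could move the values little. Of the 96 TRBV14 chains in WT, for example, they kept 96, 95 and 93. The shares with TRBJ1-2 and TRBJ1-6 and the median UMIs were added to the recomputed values after seeing the data. With contigs of at least 3 UMIs only, 4 moved: cells with a TRA chain fell to 30.4% (WT) and 16.7% (Btla-/-) for TRBV14 and to 28.1% and 17.3% for TRBV15, because the median TRA contig had 3 UMIs. In cells with exactly 1 TRA and 1 TRB chain, 8 moved. TRBV14 made up 2.84% of TRB chains in WT (40 of 1406) and 2.59% in Btla-/- (38 of 1466). This turns the direction of its difference between libraries, with intervals that overlapped. TRBV15 made up 4.84% and 4.91%. CDR3s of at most 13 amino acids became 44.4% of TRBV15 chains in Btla-/-. TRBJ1-6 became 0% with TRBV14 in Btla-/- and with TRBV15 in WT, and TRBJ1-2 became 0% with TRBV15 in WT, over 38, 68 and 68 chains. The other 8 follow from the limit itself. Counting the first 4 amino acids gave 86.5% and 83.5% (TRBV14) and 80.3% and 86.4% (TRBV15), and a length limit of 12 amino acids gave 10.4% and 15.9% (TRBV14) and 15.8% and 9.79% (TRBV15).

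No paired analysis was possible because each genotype had 1 library. The 96 TRBV14 chains of WT, and the subsets of them that had a TRBJ2 segment or an α chain, leave wide intervals. Differences between the libraries cannot be told apart from differences between mice, cell preparations or sequencing depth.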
